A study of Sus scrofa with 16 samples.

Results

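JUN and KLF4 are transcription factors of the immediate early class, 2 of the 175 genes that carried a symbol on a pig array of 20736 rows. They were chosen by symbol, and with their values in view: both had large differences between tissues, and JUN also differed between animals. Each had 1 row, JUN row 15941 (gene ID 396913) and KLF4 row 4707 (gene ID 595111). The samples were total RNA from 4 tissues of 4 gilts (female pigs) aged about 165 days: brain stem, uterine endothelium, liver and skeletal muscle, the last taken from the longissimus. The labels give no strain, and they name no treatment. Each of the 16 arrays compared 2 tissues of 1 gilt, one in Cy3 and one in Cy5, and a gilt's 4 arrays closed a loop that held each tissue in both dyes. Every tissue thus had 4 gilts, and the gilt was the replicate.

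JUN is the founding member of the JUN family of leucine zipper proteins. It pairs with itself, with FOS proteins or with ATF proteins to form AP-1, and its N terminus is phosphorylated by JUN N-terminal kinases, which link it to responses to stress, cytokines and growth factors. KLF4 is a zinc finger protein of the Krüppel-like family that binds GC-rich and CACCC elements. In mammals it is known from the barrier layers of skin and gut, from vessel walls and from the set of factors that reprogram somatic cells. Transcripts of both are made rapidly after a stimulus and are short-lived.

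Values are log2 ratios of Cy5 over Cy3 as deposited. The log base and the sign are inferred and not stated. Arrays had medians between -0.01 and 0.01 and SDs between 0.52 and 1.00. The 4 ratios of each gilt were solved into 4 tissue values relative to that gilt's mean of the 4 tissues, which are differences within a gilt and not levels. A gilt's 4 values sum to 0, so a low tissue raises the other 3. Spot intensities were not used here, so how far either probe lay above background is not known, and 4 gilts per tissue limit the precision. In these bulk samples less RNA per cell cannot be told apart from fewer cells of a type. The sign was read so that known tissue genes point to their tissue, which most of them did and some did not, so it is likely and not settled. Of 6 liver genes, among them CRP and PROC, 5 were called higher in liver than in the remaining tissues on average (limma, adjusted over all rows at 0.05; 14.2% of all rows were), with CRP at 2.47 ± 0.28 (SD, n = 4) in liver. MYOD1, the myogenic factor, was at 0.86 ± 0.12 in muscle, where 15.9% of rows were called higher, while MYH7, the slow myosin heavy chain, was not called there and stood at -0.04 ± 0.09. CAV1, the main protein of caveolae, was at 1.09 ± 0.35 in uterine endothelium (17.0% of rows called higher), and the oxytocin receptor OXTR at -0.18 ± 0.11 was called lower there (15.7% of rows). In brain stem GAD2 and CEND1 were called higher (20.6% of rows), GLRB was called lower (26.6%), and GAD1 was not called. Some of these genes were called higher in another tissue than the one they were listed for: OXTR in muscle (difference 0.47 from the remaining tissues), MYH7 in liver (0.25) and GAD1 in liver (0.13). The liver calls of MYH7 and GAD1 were lost without 1 gilt, MYH7 without gilt 1, 3 or 4 and GAD1 without any of the 4. The sign was chosen with these genes, so they are no independent evidence of it. The OXTR call in uterine endothelium was lost without gilt 2, 3 or 4, with differences of -0.21, -0.22 and -0.20. If the sign were the other way, every higher below would read lower.

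JUN was high in skeletal muscle and uterine endothelium and low in liver and brain stem, in each of the 4 gilts. In muscle its values were 1.22, 1.18, 0.52 and 1.18 in gilts 1 to 4. In uterine endothelium they were 0.32, 0.39, 1.16 and 1.64. All 8 of these values were above 0, and all 8 of the values in liver and brain stem were below it. Liver stood at -1.21, -1.27, -1.35 and -0.38, and brain stem at -0.33, -0.30, -0.33 and -2.44. Means were 1.02 ± 0.34 (SD, n = 4) in muscle, 0.88 ± 0.63 in uterine endothelium, -0.85 ± 1.06 in brain stem and -1.05 ± 0.45 in liver. Such a gap, with both high tissues above both low ones and no overlap over gilts, was seen in 2.56% of all rows. JUN was picked for its tissue differences, so this share is given as a description only and no test is applied.

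**Figure D1:**
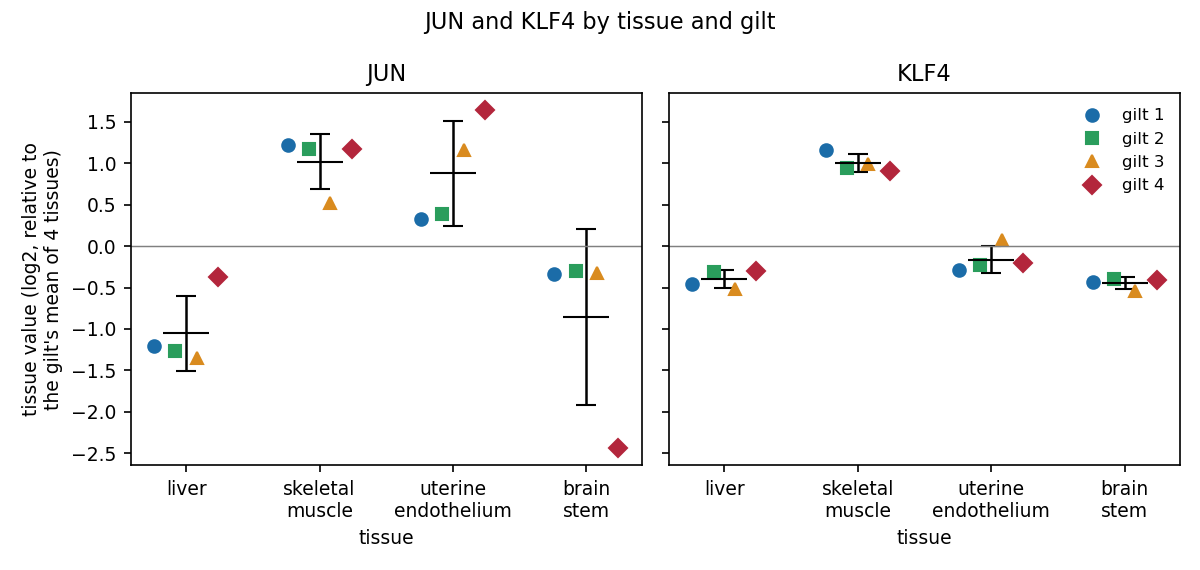
Tissue values of JUN (left) and KLF4 (right) on the log2 scale, relative to the mean of each gilt's 4 tissues; each symbol is 1 gilt, horizontal bars are means and error bars are SD over 4 gilts. JUN in brain stem lies near -0.3 in gilts 1 to 3 and at -2.44 in gilt 4, while KLF4 in muscle lies between 0.91 and 1.16 in all gilts.

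The largest mean difference of JUN was that between liver and muscle. It was -2.43, -2.44, -1.87 and -1.56 in gilts 1 to 4, a mean of -2.07 ± 0.44 (SD), or 4.21-fold lower in liver if the values are log2. Against uterine endothelium liver was lower by a mean of -1.93 ± 0.44, with gilts between -2.51 and -1.53. Both differences had 1 sign in 4 of 4 gilts and were several times their SD. Muscle exceeded brain stem by 1.87 ± 1.21 and uterine endothelium exceeded it by 1.73 ± 1.61, again in 4 of 4 gilts, but here the sizes ranged from 0.85 to 3.62 and from 0.66 to 4.08.

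Within the high pair and within the low pair, JUN did not differ beyond its spread. Muscle minus uterine endothelium was 0.89 and 0.78 in gilts 1 and 2 and -0.64 and -0.46 in gilts 3 and 4, a mean of 0.14 ± 0.81. Muscle was thus the higher in gilts 1 and 2 and uterine endothelium in gilts 3 and 4. Liver minus brain stem was -0.88, -0.97 and -1.02 in gilts 1 to 3 and 2.07 in gilt 4, with a mean of -0.20 ± 1.51. Liver was the lowest tissue in gilts 1 to 3 and brain stem in gilt 4.

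Gilt 4 set the size of JUN's spread in brain stem. Its value of -2.44 lay 2.12 below the mean of the other 3 gilts, which was -0.32 ± 0.02 (SD, n = 3). The low value was seen on both arrays that carried brain stem RNA of gilt 4, with the dyes exchanged. With brain stem in Cy5 against liver the deposited ratio was -1.88, and with brain stem in Cy3 against uterine endothelium it was 4.27. A ratio of 4.27 or more in size was seen in 1.23% of rows on that array. In gilt 1 the array of liver over brain stem gave -0.87 and in gilt 3 that of brain stem over liver gave 1.09, so brain stem was above liver in both. Gilt 2 had no such array, and its solved liver minus brain stem was -0.97.

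Without gilt 4, the order of JUN was the same in its high and low pair. Muscle and uterine endothelium then exceeded brain stem by less, and liver lay further below brain stem. Muscle minus brain stem became 1.29 ± 0.39 (SD, n = 3) and uterine endothelium minus brain stem 0.95 ± 0.47. Liver minus brain stem went from -0.20 ± 1.51 over all gilts to -0.96 ± 0.07, with -1.02 to -0.88 in the 3 gilts. Liver minus muscle was -2.25 ± 0.33 and liver minus uterine endothelium -1.90 ± 0.53, both within 1 SD of the values over all gilts.

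The brain stem sample of gilt 4 also stood apart over the whole table. The root mean square deviation from the tissue mean over all rows was 0.26 there and between 0.12 and 0.20 in the other 15 samples. In it, 1.24% of rows deviated by at least 1, against at most 0.49% in any other sample. JUN deviated by -1.59, and 52 rows (0.25%) lay as far or further down. Of the 4 brain stem genes measured, in gilt 4 GAD2 was at 0.59, CEND1 at 0.15 and GAD1 at -0.05, against 0.04 to 0.20, 0.17 to 0.32 and -0.02 to 0.05 in the other gilts. GLRB was at -0.27 and between -0.35 and -0.10 in the others. The blood and leukocyte genes ITGA2B and CCR9 were at 0.24 and 0.35 there, against 0.10 to 0.23 and 0.12 to 0.45 in the other gilts. Both arrays that carried this sample also had the widest ratios, with SDs of 0.89 and 1.00 against 0.52 to 0.82 on the others. The part of this sample's difference, or of these wide arrays, in the value of JUN was not tested.

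KLF4 was highest in skeletal muscle in every gilt, at 1.16, 0.94, 1.00 and 0.91. The other tissues lay below it without overlap, which held for 7.71% of all rows. Uterine endothelium came next with -0.28, -0.23, 0.07 and -0.21, then liver with -0.46, -0.32, -0.52 and -0.29 and brain stem with -0.43, -0.40, -0.55 and -0.41. Means were 1.00 ± 0.11 (SD, n = 4) in muscle, -0.16 ± 0.16 in uterine endothelium, -0.40 ± 0.11 in liver and -0.45 ± 0.07 in brain stem. Muscle exceeded uterine endothelium by 1.17 ± 0.21 and brain stem by 1.45 ± 0.14, and liver minus muscle was -1.40 ± 0.20. On a log2 reading muscle was 2.24-fold, 2.73-fold and 2.64-fold higher. As with JUN, these differences are those for which the gene was picked and carry no test.

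Among the 3 lower tissues KLF4 differed little. Uterine endothelium minus brain stem was 0.15, 0.17, 0.62 and 0.21, a mean of 0.28 ± 0.22, and liver minus uterine endothelium was -0.17, -0.09, -0.59 and -0.09, a mean of -0.24 ± 0.24. Gilt 3, whose uterine endothelium was the highest of the 4, gave the largest size in both. Liver and brain stem did not differ beyond their spread, with -0.03, 0.08, 0.03 and 0.12 and a mean of 0.05 ± 0.06. The low brain stem of gilt 4 was not shared by KLF4, which stood there at -0.41 against -0.55 to -0.40 in the other gilts.

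Both genes had muscle high and liver and brain stem low, and they parted in uterine endothelium, where JUN was at 0.88 ± 0.63 and KLF4 at -0.16 ± 0.16. The ranges over gilts there, 0.32 to 1.64 and -0.28 to 0.07, did not overlap. These are differences from each gene's own mean over tissues and say nothing of which transcript was more abundant. Over the 16 tissue values the genes correlated with r = 0.64 (Spearman's rho = 0.81), as a description of values that share arrays and gilts.

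Going once around a loop, the tissue differences cancel, so the sum of the 4 ratios measures dye and error and does not use the differences for which the genes were picked. For JUN the sums were 0.01, 0.75, 0.27 and 0.76 in gilts 1 to 4, which is 0.003, 0.19, 0.07 and 0.19 per array. For KLF4 they were 0.05, -0.19, 0.55 and 0.29. Every sum of JUN was above 0 and 3 of 4 of KLF4 were. The mean per array was 0.11 ± 0.04 (SE) for JUN, with limma adjusted p = 0.20 and unadjusted p = 0.0345, and 0.04 ± 0.04 for KLF4, with limma adjusted p = 0.55. Neither was called, and 0.786% of all rows were (163 rows). With scaled arrays the means were -0.0659 and -0.0065. Scaling divides each array by its own spread, so tissue differences no longer cancel around a loop. These scaled means are therefore not dye and error alone. Each loop held every tissue in both dyes, so a dye effect equal on all arrays drops out of the solved tissue values whatever its size. A dye effect particular to a tissue or an array was not tested.

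**Figure D2:**
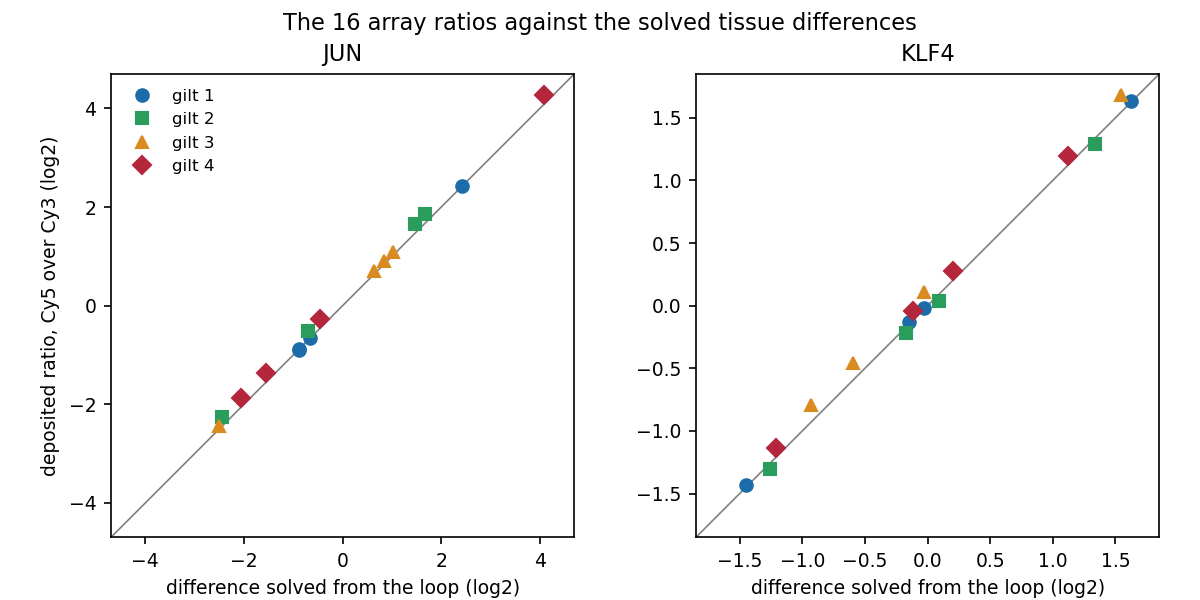
Deposited ratios of the 16 arrays (vertical axis, Cy5 over Cy3, log2) against the tissue difference solved from the same gilt's loop (horizontal axis, log2), for JUN and KLF4; symbols are gilts and the line marks equality. All points lie within 0.19 of the line, also the JUN ratio of 4.27 between uterine endothelium and brain stem of gilt 4.

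JUN was also picked for its spread between gilts, so its spread is given here as a description and its size and rank support nothing. After tissue and gilt means were taken out, its residual SD was 0.78, and 0.641% of all rows had as much. Its loop sums hold array error but no difference between animals. Error that an RNA sample carries to both its arrays cancels around a loop too, so it is not held either. The spread of the sums over gilts, which leaves out a dye effect shared by the gilts, corresponds to an SD of 0.12. The residual SD was 6.59 times that size, against a median of 1.43 times over all rows and of 1.69 over the 3830 rows with tissue means at least 1 apart. KLF4 had a residual SD of 0.13, at or above which 48.5% of rows lay, and 1.31 times the SD from its loops. Among rows with tissue means at least 1 apart, 3.32% had as much spread as JUN and 95.9% had as much as KLF4. Of the 175 named genes JUN, picked for this, had the largest residual SD and ranked 12 in its range of tissue means, 2.07, while KLF4 ranked 81 and 18 with a range of 1.45. Without gilt 4 the residual SD of JUN was 0.35.

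**Figure D3:**
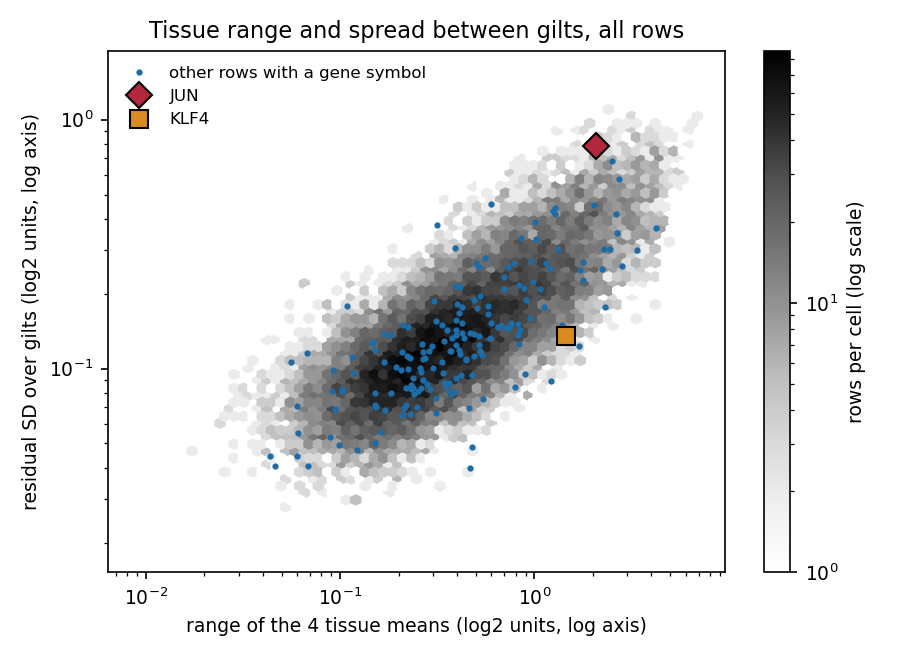
Range of the 4 tissue means (horizontal, log2 units on a log axis) against residual SD over gilts (vertical, log2 units on a log axis) for all 20736 rows, with shading for the number of rows, small points for other rows with a gene symbol and large symbols for JUN and KLF4. JUN, at a range of 2.07 and an SD of 0.78, lies above most rows of like range and KLF4, at 1.45 and 0.13, below most of them.

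No other immediate early gene could be set beside them. Of 32 immediate early and AP-1 genes listed, such as FOS, JUNB, ATF3 and EGR1, 0 carried a symbol among the rows named here, and the same held for 20 KLF and pluripotency factors. Of 34 stress kinases and stress proteins 3 were named, and all 3 passed the F test among tissues (61.2% of all rows did). PSME1, the proteasome activator, was at 1.16 ± 0.19 (SD, n = 4) in uterine endothelium and at -1.30 ± 0.41 in brain stem. PSMB8, an immunoproteasome subunit, was at 0.75 ± 0.19 and -0.40 ± 0.33 in the same tissues. TSPO, of the outer mitochondrial membrane, was at 1.43 ± 0.36 in liver and -1.09 ± 0.77 in brain stem. PSME1 and TSPO were called higher in liver (14.2% of all rows were), and PSME1 and PSMB8 in uterine endothelium (17.0%). The liver call of PSME1, at 0.66 with all gilts, was lost without gilt 1 or 3, at 0.61 and 0.64. All 3 were called lower in muscle (14.9% of rows were) and lower in brain stem (26.6%), while JUN was high in muscle and low in brain stem. Without 1 gilt the muscle call was lost for PSMB8 (gilts 1, 2 and 3), PSME1 (gilts 1, 2 and 3) and TSPO (gilts 2 and 3), and the brain stem call of PSMB8 without gilt 4, at -0.32. The median of the 3 differences (tissue against the remaining tissues) was -0.51 in muscle and -1.45 in brain stem, against -0.03 and -0.01 over all rows. In brain stem of gilt 4 PSME1 was at -1.83 and PSMB8 at -0.88, each the lowest of its 4 gilts, while TSPO at -0.31 was the highest of its 4.

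Of 32 cytokines and targets linked to AP-1, 5 were named and 3 passed the F test, a share near the 61.2% of all rows that did. The cytokine IL1A was at 0.87 ± 0.05 in liver and -0.82 ± 0.13 in brain stem. LTA, lymphotoxin alpha, was at 1.17 ± 0.22 in brain stem and -0.61 ± 0.17 in liver. The T cell cytokine IL17A was at 0.35 ± 0.11 in brain stem and was called lower in liver, as LTA was (11.3% of rows). IL2 had limma adjusted p = 0.56 and LIF limma adjusted p = 0.16, with all tissue means between -0.09 and 0.06. By limma, 0 of the 5 were called higher in muscle and 0 in uterine endothelium, where 15.9% and 17.0% of all rows were, so that with 5 genes these counts are near the background. LTA was called lower in muscle. The liver call of IL17A was lost without gilt 1, 3 or 4, with differences between -0.21 and -0.19. The median difference of the 5 was -0.12 in muscle and -0.11 in uterine endothelium, against -0.03 in both over all rows.

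Among the other named genes, the pattern of JUN over the 16 tissue values had only loose likenesses. The 5 with the largest correlation were PPP2R1A (r = 0.70), CAV1 (r = 0.68), ITGB1 (r = 0.65), KLF4 (r = 0.64) and PGK2 (r = 0.59). PPP2R1A, a scaffold subunit of a serine/threonine phosphatase, reached only 0.33 ± 0.28 in uterine endothelium and -0.18 ± 0.27 in brain stem, and its r was 0.38 without gilt 4. ITGB1, an integrin beta chain, was at 0.27 in both muscle and uterine endothelium. The match was closer in reverse. IL18R1, a chain of the IL18 receptor, had r = -0.94, with 0.24 ± 0.13 in liver, -0.27 ± 0.06 in muscle, -0.21 ± 0.15 in uterine endothelium and 0.23 ± 0.22 in brain stem. The phosphate transporter SLC17A1 (r = -0.84) and the sperm phospholipase PLCZ1 (r = -0.83) followed. Over all other rows, 10 reached r of 0.9 with JUN and 43 were opposed to it at that size.

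KLF4 had closer likenesses. MYOD1 (r = 0.96), the antimicrobial peptide PR39 (r = 0.96) and PGK2 (r = 0.91), the testis form of phosphoglycerate kinase, all peaked in muscle, at 0.86 ± 0.12, 0.53 ± 0.11 and 2.31 ± 0.36. Whether the PGK2 probe shares sequence with PGK1 was not tested. PGK2 differed from KLF4 in brain stem, where it was at -1.91 ± 0.29. KLK1, tissue kallikrein (r = 0.85), and SHAS2 (r = 0.83) came next with 0.38 ± 0.16 and 0.32 ± 0.05 in muscle. PDCD1LG2, an immune checkpoint ligand, was the most opposed (r = -0.84), at -0.18 ± 0.06 in muscle. PLCZ1 (r = -0.73) and TLR10 (r = -0.69), a Toll-like receptor, were next. By rank the likenesses were looser, with Spearman's rho of 0.76 for MYOD1 and 0.57 for SHAS2. In all, 466 rows (2.25%) reached r of 0.9 with KLF4 and 11 were opposed at that size. These correlations are descriptions over 16 values from 4 gilts and share the arrays.

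**Figure D4:**
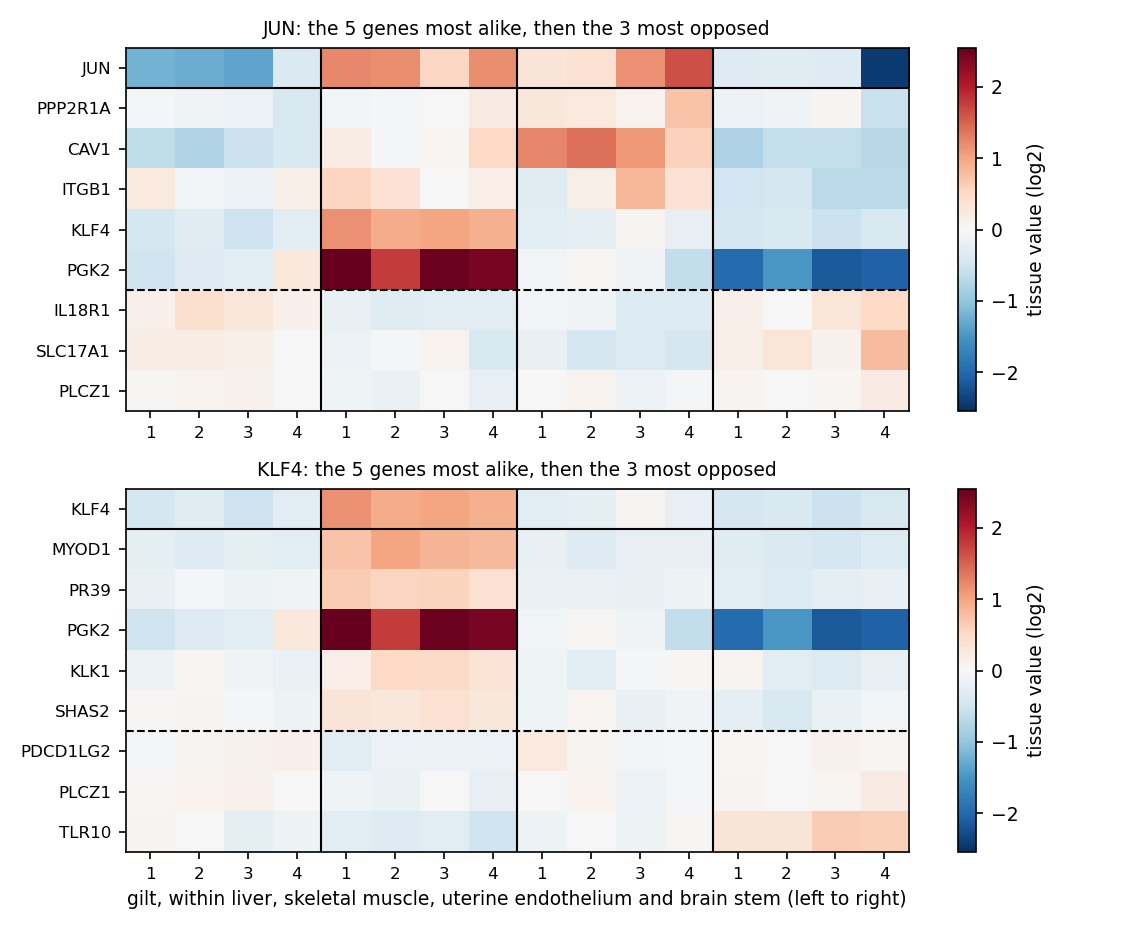
Tissue values (log2, colour) of JUN and KLF4 above the 5 named genes whose 16 values correlate most with theirs and, below the dashed line, the 3 most opposed; columns are gilts 1 to 4 within each tissue, and each panel has its own colour scale. JUN and CAV1 are high in uterine endothelium, while the genes most like KLF4 have their highest mean in muscle.

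The deviations of JUN from its tissue means were shared by few genes. TYROBP, the signalling adaptor of myeloid cells, microglia and natural killer cells, followed them most closely (r = 0.89 over 16 deviations, and 0.82 over 12 without gilt 4). Its brain stem values were -0.0016, 0.19 and -0.08 in gilts 1 to 3 and -0.90 in gilt 4, and its uterine endothelium values were 0.39, 0.10, 0.89 and 0.63. Like JUN, it was thus lowest in the brain stem of gilt 4 and higher in the uterine endothelium of gilts 3 and 4 than in that of gilts 1 and 2. TYROBP and the 4 genes that follow were picked for this likeness in these same values. The match is thus a description, also without gilt 4, and supports nothing. TNFSF8, a ligand of the tumour necrosis factor family, had r = 0.78, the desmosomal cadherin DSG1 0.78, the chemokine receptor CXCR6 0.75 and PSME1 0.74. Without gilt 4 these were 0.55, -0.21, -0.01 and 0.28, so that 3 of the 4 rested on that gilt. For KLF4 the correlation with the deviations of JUN was 0.18 over all gilts and 0.67 without gilt 4. Over all other rows, 25 (0.121%) reached r of 0.9 with the deviations of JUN. ITGA2B and CCR9 in uterine endothelium were between -0.34 and -0.21 and between -0.44 and -0.31; their part in the values of JUN was not tested.

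**Figure D5:**
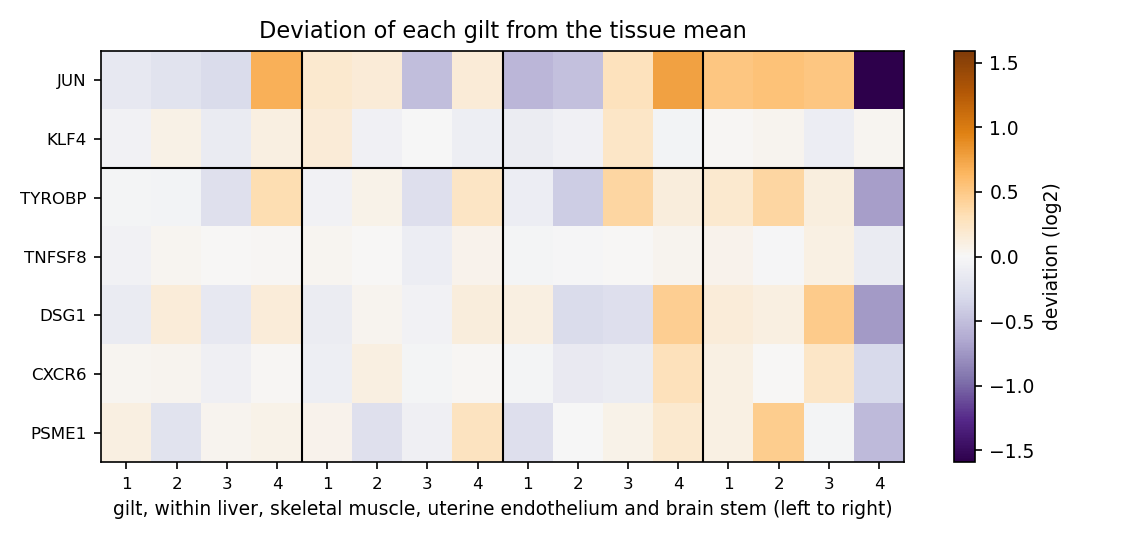
Deviation of each gilt from the tissue mean (log2, colour), after gilt means are taken out, for JUN, KLF4 and the 5 named genes whose deviations correlate most with those of JUN; columns are gilts 1 to 4 within each tissue. JUN and all 5 of these genes are lowest in the brain stem of gilt 4, where KLF4 is near 0.

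The rows numbered next to both genes had smaller tissue means. Spot positions were not used, so these rows need not lie side by side on the array. The rows before and after JUN were those of PRLR and RPN2, with largest tissue means of 0.47 and 0.42 in size and r of -0.10 and 0.30 with JUN. The unnamed row before KLF4 had 0.32 in muscle and r = 0.79, and the row after it, CRSP-2, had r = -0.22.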

How the data were processed

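The authors' deposited values were 1 log ratio per row and array, read here as log2 of Cy5 over Cy3; the largest size, 10.42, would be 1372-fold. How they were scanned, background-corrected and normalized, and on what log base and sign, is not given in the sources used here. RNA was extracted with TRIzol and amplified with a T7 oligo(dT) primer, per the labels' protocols. Each gilt's loop was solved by least squares into 4 tissue values. All rows were tested in R 4.3.3 (limma 3.58.1), with a fixed term for the gilt, 9 residual degrees of freedom and Benjamini-Hochberg adjustment at 0.05. Tests were an F test over tissues, 1 tissue against the average of the remaining ones, and loop sums against 0. Tissue differences of JUN and KLF4 were not tested, since they were picked for them. Tissue values of 1 number come from 1 animal, per the labels, which is the basis of the pairing. The fits were tested on simulated data. Members and lists were chosen with earlier results of these data known. Named genes were JUN and KLF4, the 5 genes most like and the 3 most unlike each, the 5 most like JUN in deviations, and all measured list genes. Symbols came from the platform annotation for 178 rows, all matched by gene ID, and 20558 rows were unnamed. No sequence or position is given. Alternatives were array centring and scaling, no gilt block, a random block, a filter on low SD, leaving out gilts, direct arrays, natural logs and a turned sign.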

Additional observations from a re-analysis of the deposited data

Results flagged for a closer look

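Of 54 values checked, 7 had a single gilt set apart. The ratio given is that gilt's distance to its closest neighbour divided by the spread from lowest to highest. For independent values not picked for their spread, chance gives about 1 in 20. JUN was picked for its spread between gilts. The tissue values of a gilt also sum to 0, and differences between them were checked too. The count of 7 can thus not be set against that rate. For JUN in brain stem the ratio was 0.985, with gilt 4 at -2.44 and the others between -0.33 and -0.30. JUN in liver gave 0.856 (gilt 4 at -0.38, the others -1.35 to -1.21) and JUN liver minus brain stem 0.953 (gilt 4 at 2.07, the others -1.02 to -0.88). These 3 share the brain stem and liver values of gilt 4 and are not separate observations. JUN in skeletal muscle gave 0.941, with gilt 3 at 0.52 and the others between 1.18 and 1.22. KLF4 gave 0.831 for liver minus uterine endothelium and 0.872 for uterine endothelium minus brain stem, in both through gilt 3, at -0.59 and 0.62. Both share the uterine endothelium value of gilt 3 and are not separate observations. IL2 in brain stem gave 0.847, with gilt 2 at 0.09 and the others between 0.001 and 0.02. The marker genes of tissues and blood were not among the values checked. Some of them had ratios of like size: CYP7A1 in uterine endothelium (0.933), ITGA2B in liver (0.866), MBL2 in liver (0.859) and CYP8B1 in brain stem (0.843).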

How the results depend on the processing

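Centring the arrays on their medians kept every tissue value and difference of JUN and KLF4 within 1 SD. With the sign turned, JUN read 1.05 in liver, -1.02 in muscle, -0.88 in uterine endothelium and 0.85 in brain stem, and KLF4 0.40, -1.004, 0.16 and 0.45. Read as natural logs, JUN was -1.52 in liver and 1.48 in muscle, and KLF4 -0.57 in liver, 1.45 in muscle and -0.64 in brain stem. JUN liver minus brain stem ranged from -0.96 to 0.0735 without 1 gilt, and muscle minus uterine endothelium from -0.11 to 0.41; the latter was -0.14 with no replicate block and -0.0302 on arrays with both tissues. KLF4 liver minus brain stem was -0.0423 with scaled arrays and -0.0286 on arrays with both tissues. With scaled arrays the loop means were -0.0659 for JUN and -0.0065 for KLF4. These also hold tissue differences, which do not cancel around a loop once arrays are scaled. Without gilt 4 the deviations of DSG1 and CXCR6 correlated with those of JUN at -0.21 and -0.0067. Without 1 gilt, rows called against the mean of the other tissues ranged from 3237 to 4384 in liver (5301 with all), 4232 to 5039 in muscle (6379) and 3560 to 5789 in uterine endothelium (6774). Rows with a dye effect by limma ranged from 0 to 131; the 0 was without gilt 2 (3764 at unadjusted p under 0.05) or gilt 3 (2995), and 6 were called without gilt 4. The no-block fit, which treats the arrays of a gilt as independent replicates, called 14503 rows in the F test against 12699. The part of this in the larger count was not tested. Likenesses without 1 gilt, and deviations without gilt 4, were added after seeing the data. With 4 gilts and no intensities, dim rows could not be separated from bright ones.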

Other observations

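The deviations of KLF4 from its tissue means, over 16 values, were most like those of ITGB1 (r = 0.70), CA11 (r = 0.68), a carbonic anhydrase-related protein, MAOA (r = 0.61), which breaks down monoamines, ITM2A (r = 0.58), a membrane protein, and ACADS (r = 0.45), a short-chain acyl-CoA dehydrogenase. These genes were picked for this likeness, after their values were seen, so their values are a description. In the uterine endothelium of gilt 3, KLF4 was at 0.07, above the -0.28 to -0.21 of the other gilts. ITGB1 stood there at 0.84 against -0.30 to 0.37, MAOA at 1.09 against -0.03 to 0.72, CA11 at 0.38 against 0.05 to 0.16 and ITM2A at 0.66 against -0.22 to 0.32. ACADS was at -0.29 there and highest in gilt 4, at -0.18.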
